A study of Rattus norvegicus with 11 samples.

Results

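The genes described here are 10 genes of fatty acid synthesis and its control, Scd, Thrsp, Pnpla3, Fasn, Acaca, Acly, Elovl6, Srebf1, Me1 and Mlxipl, in the ileum of rats with severe acute pancreatitis (SAP). They were taken by symbol from tables of 24481 genes with read counts and 24205 genes with FPKM (fragments counted on a gene, divided by its transcript length and by the size of the library), and all 10 were found in both. The list was chosen by the levels of Scd and Thrsp, which were known in these libraries when it was drawn up, so the values of this pair are given as a description without a test. The other 8 genes were added for their place in the pathway, with earlier results of these libraries known.

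RNA of 11 ileum samples was sequenced, 3 of the control group, 4 of the SAP group and 4 of the JZL184 group. The study describes all animals as male SD rats, of 6 to 8 weeks. Pancreatitis was induced in the SAP and JZL184 groups by infusing 3% sodium taurocholate into the pancreatic duct, and 24 h later the JZL184 rats received 10 mg/kg of JZL184 into the peritoneum. JZL184 inhibits monoacylglycerol lipase (MAGL), the enzyme that degrades the endocannabinoid 2-AG. Control and SAP rats received vehicle, and all rats were killed 24 h after the injection. The methods date the division into 3 groups from the surgery and do not say what surgery control rats had. The labels of the control libraries name a control plasmid and the titles of the SAP libraries the word oil, where the study's methods describe vehicle. The labels also name intestinal epithelial cells beside ileum tissue, and the libraries held the smooth muscle markers Myh11, Acta2, Actg2, Des, Tagln and Cnn1 at a summed level of 366.67 FPKM or more in every library, so they were read as whole ileum.

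The 11 libraries had between 26341299 and 33847135 reads on genes. Control libraries 1 and 2 were nearly alike, with a chi-square per gene of 2.81, against 77.5 to 563 in every other pair of libraries within a group. For this reason they enter the main fits and tests as 1 sample (summed reads, averaged FPKM), and the control group has n = 2. Alternative settings that keep them separate are named as such. SAP library 2 had 20 reads on 3 Y-linked genes and 7826 reads on the Xist transcript, where the other libraries had 1222 to 4665 and at most 56, although the study describes male rats. The FPKM of all genes summed to 484256 in SAP library 1 and 494474 in SAP library 2, and to between 596324 and 679912 in the other 9 libraries. Fold changes of Scd, Thrsp, Pnpla3, Fasn and Elovl6, and limits that this library sets in the ratios and marker sums, are also given without it. Nothing in the labels says how the samples of a group were kept apart beyond their numbers, and the p-values measure the spread between these samples.

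De novo lipogenesis turns acetyl-CoA into fatty acids. Acly (ATP citrate lyase) makes cytosolic acetyl-CoA from citrate, Acaca (acetyl-CoA carboxylase 1) turns it into malonyl-CoA, and Fasn (fatty acid synthase) builds palmitate from both with NADPH that Me1 (malic enzyme 1) helps to supply. Elovl6 lengthens palmitate to stearate and Scd (stearoyl-CoA desaturase) puts in the double bond that makes oleate. Srebf1 encodes SREBP-1, a transcription factor that insulin raises, and Mlxipl encodes ChREBP, a transcription factor that responds to glucose. Thrsp (Spot 14) is a thyroid hormone responsive nuclear protein of lipogenic tissues, and Pnpla3 (adiponutrin) is an acylhydrolase of lipid droplets. In liver and fat, the transcripts of this pathway are known to be low in fasting and high after carbohydrate feeding. Intestinal epithelium also holds the pathway, beside its main task of absorbing dietary fat.

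Promoters of 7 of the 10 genes were found in the RefSeq promoter table of the GRCr8 build, which gives 250 bases before and 50 after each start site. Fasn, Acaca and Elovl6 were not matched. The 250 bases before the start site are shown for Scd (chr1:253231732-253231981, minus strand), Thrsp (chr1:161138965-161139214, minus strand) and Pnpla3 (chr7:117173278-117173527, plus strand), because these genes had the lowest levels relative to control in the SAP and JZL184 groups. The sequences run from 5′ to 3′ along the gene, and capitals mark a CCAAT box on either strand (read as ATTGG on the opposite strand).
Scd: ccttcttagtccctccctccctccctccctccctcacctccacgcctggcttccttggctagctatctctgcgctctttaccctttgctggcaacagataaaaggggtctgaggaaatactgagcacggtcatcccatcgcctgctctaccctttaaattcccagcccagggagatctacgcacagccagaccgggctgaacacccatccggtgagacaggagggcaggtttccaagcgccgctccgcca
Thrsp: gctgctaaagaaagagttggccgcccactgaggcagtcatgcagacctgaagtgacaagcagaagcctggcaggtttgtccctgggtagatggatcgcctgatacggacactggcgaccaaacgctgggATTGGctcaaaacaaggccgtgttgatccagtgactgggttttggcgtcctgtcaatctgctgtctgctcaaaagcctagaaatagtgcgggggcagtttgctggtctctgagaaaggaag
Pnpla3: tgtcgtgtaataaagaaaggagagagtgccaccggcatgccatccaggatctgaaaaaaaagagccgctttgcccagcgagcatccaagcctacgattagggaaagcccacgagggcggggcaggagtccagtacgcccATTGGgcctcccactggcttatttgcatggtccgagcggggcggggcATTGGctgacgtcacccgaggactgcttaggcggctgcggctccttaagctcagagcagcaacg
The CCAAT box was found on either strand in 5 of the 7 genes (Acly, Mlxipl, Pnpla3, Srebf1 and Thrsp) and in 37.5% of all 33469 promoters of the table. The GC box GGGCGG was found in 5 of 7 (Acly, Me1, Pnpla3, Srebf1 and Thrsp) and in 33.1% of all promoters. Neither stood in the window of Scd. The sterol element core TCACNCCAC, a form of the SREBP site, was in none of the 7 windows and in 1.12% of all promoters, and the E-box CACGTG was in none of the 7 and in 6.42%. These counts say which letters stand in these windows and nothing of the binding of a factor. Matches of different motifs that overlapped were each counted. Members were counted per gene and the promoters of the table per window, so the shares are not in the same unit. Srebf1 and Mlxipl had more than a single window each, and a match in any window counted for the gene.

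Scd had 7.66, 7.36 and 4.64 FPKM in control libraries 1, 2 and 3, from 1072, 1094 and 716 reads. In SAP libraries 1 to 4 it had 0.10, 0.44, 0.24 and 0.14 FPKM, from 18, 70, 35 and 23 reads, and in JZL184 libraries 1 to 4 it had 0.25, 0.15, 0.22 and 0.17 FPKM, from 41, 22, 32 and 24 reads. The desaturase transcript was thus present in every library, and each control library lay far above all 8 libraries of rats with pancreatitis. Means were 6.08 ± 2.03 FPKM (SD, n = 2) in control, 0.230 ± 0.152 (n = 4) in SAP and 0.198 ± 0.046 (n = 4) in JZL184. Its log2 fold change in edgeR (with its standard error, SE) was -4.92 with an SE of 0.57 in SAP against control and -5.00 with an SE of 0.34 in JZL184 against control. It was -0.06 with an SE of 0.47 in JZL184 against SAP, where the libraries of the groups overlapped, and 0.39 without SAP library 2, which had the most Scd reads of its group. In bulk samples, fewer cells of a type and less RNA per cell cannot be told apart, and this holds for every level given here.

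Thrsp had 232.70, 221.60 and 152.77 FPKM in control libraries 1 to 3 and was the most abundant of the 10 transcripts there. In SAP libraries it had 13.36, 3.09, 16.41 and 8.89 FPKM. In JZL184 libraries it had 10.51, 17.73, 43.11 and 27.17 FPKM, so that 3 of the 4 lay above every SAP library and JZL184 library 1 lay among them. Means were 190 ± 52.6 FPKM (SD, n = 2) in control, 10.4 ± 5.79 (n = 4) in SAP and 24.6 ± 14.1 (n = 4) in JZL184. As a log2 fold change, Thrsp had -4.36 with an SE of 0.61 in SAP against control, -3.01 with an SE of 0.49 in JZL184 against control and 1.38 with an SE of 0.55 in JZL184 against SAP. Without SAP library 2, which had the lowest level, the last value was 1.06.

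**Figure D1:**
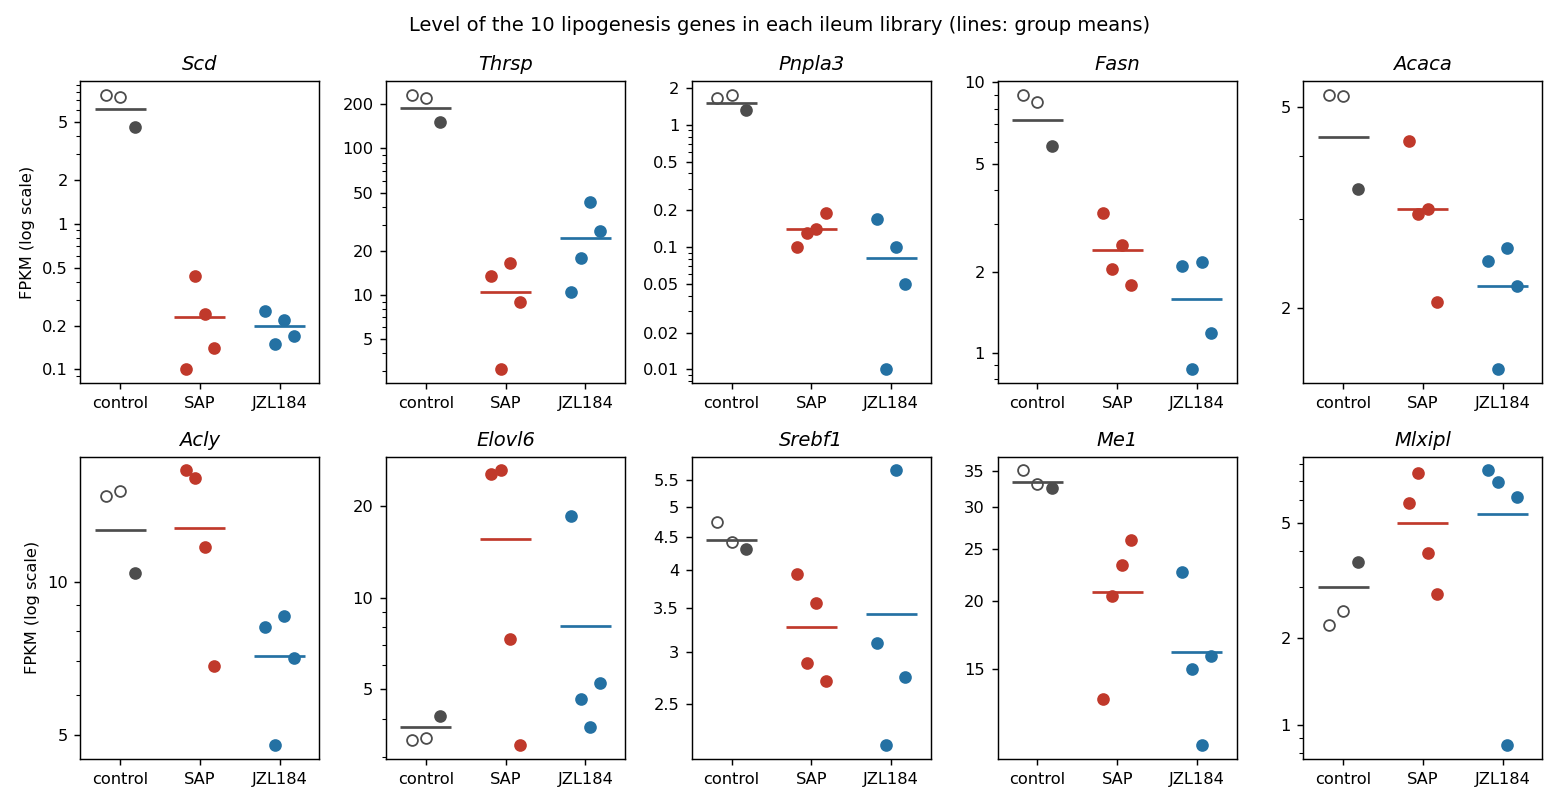
FPKM of the 10 genes (log scale, a separate axis for each gene) in every library of the control, SAP and JZL184 groups. Each point is a library, open points are control libraries 1 and 2, and lines are group means with these averaged. Scd, Thrsp, Pnpla3 and Fasn lie lower in all 8 pancreatitis libraries than in any control library, with Scd at 0.10 to 0.44 FPKM against 4.64 to 7.66.

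Pnpla3, the lipid droplet protein, had 1.67, 1.76 and 1.32 FPKM in the control libraries, from 134, 150 and 117 reads. It had 0.10, 0.13, 0.14 and 0.19 FPKM in the SAP libraries, from 10, 12, 12 and 17 reads, and 0.17, 0.01, 0.10 and 0.05 FPKM in the JZL184 libraries, from 16, 1, 8 and 4 reads. Neither group overlapped with control, and the SAP and JZL184 groups overlapped with each other. At these depths the low groups rest on few reads, and JZL184 library 2 on a single read. In JZL184 against control, Pnpla3 fell by 4.27 on a log2 scale (SE 0.66, adjusted p = 0.0242, edgeR's quasi-likelihood test with Benjamini-Hochberg adjustment over all genes tested). Pnpla3 entered this test only through the control samples, where it was high, so this p-value is given as a description. With at least 10 reads required in every library, Pnpla3 was not tested in this comparison. In SAP against control the log2 fold change was -3.60 (SE 0.43) with an adjusted p of 0.121 in edgeR, which did not pass, and 5.33e-09 in DESeq2, which did.

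Fasn, the synthase, had 9.0, 8.45 and 5.81 FPKM in control, 3.30, 2.04, 2.5 and 1.79 in SAP and 2.10, 0.87, 2.17 and 1.19 in JZL184. Every pancreatitis library lay below every control library. In JZL184 against control, Fasn fell by 2.28 (log2, SE 0.36), with an adjusted p of 0.0261 in edgeR. In SAP against control the log2 fold change was -1.79 (SE 0.33), with an adjusted p of 0.312 in edgeR and 0.00255 in DESeq2. Pnpla3 and Fasn were the members that edgeR called, and 4 of the 6 fits that left out a sample of JZL184 against control called neither: without control libraries 1 and 2, without control library 3, without JZL184 library 2 and without JZL184 library 4. The adjusted p in these fits was 0.369, 0.155, 0.0545 and 0.0677 for Pnpla3 and 0.407, 0.149, 0.0651 and 0.0725 for Fasn.

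Acaca, the carboxylase ahead of Fasn, had 5.28, 5.26 and 3.43 FPKM in control, 4.28, 3.06, 3.14 and 2.05 in SAP and 2.48, 1.51, 2.63 and 2.21 in JZL184. SAP overlapped with control and JZL184 lay below it. Acaca had a change of -1.04 on the log2 scale (SE 0.29) in JZL184 against control, with an adjusted p of 0.0866 in edgeR and 0.0496 in DESeq2. Acly, which supplies acetyl-CoA, had 14.75, 15.09 and 10.41 FPKM in control, 16.57, 16.05, 11.70 and 6.84 in SAP and 8.17, 4.78, 8.58 and 7.10 in JZL184. SAP libraries lay on both sides of control, with a mean of 12.8 ± 4.53 FPKM (SD, n = 4) against 12.7 ± 3.19 (n = 2), and all JZL184 libraries lay below control. For Acly, the log2 fold change in JZL184 against control was -0.89 (SE 0.29), with an adjusted p of 0.111 in edgeR and 0.0963 in DESeq2.

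Me1, which supplies NADPH, had 35.04, 33.09 and 32.50 FPKM in control, 13.20, 20.50, 23.42 and 26.04 in SAP and 22.65, 14.98, 10.81 and 15.86 in JZL184. Both pancreatitis groups lay below control without overlap and overlapped with each other. The log2 fold change of Me1 was -0.83 (SE 0.36, adjusted p = 0.459 in edgeR) in SAP and -1.09 (SE 0.32, adjusted p = 0.0907 in edgeR and 0.0464 in DESeq2) in JZL184, each against control. Without JZL184 library 1, the highest of its group, edgeR called Me1 lower in JZL184 against control with an adjusted p of 0.039. That fit called 1867 genes in all, against 343 with every sample. Without JZL184 library 2, 3 or 4, Me1 was not called.

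Elovl6, the elongase, had 3.40, 3.45 and 4.08 FPKM in control, 25.49, 26.16, 7.32 and 3.28 in SAP and 18.54, 4.65, 3.75 and 5.26 in JZL184. SAP libraries 1 and 2 and JZL184 library 1 stood far above the rest, and both groups overlapped with control. On the log2 scale Elovl6 differed by 1.83 (SE 0.79, adjusted p = 0.459 in edgeR) in SAP and 1.03 (SE 0.62, adjusted p = 0.319) in JZL184, each against control. It was 1.5 in SAP against control without SAP library 2, and 0.29 in JZL184 against control without JZL184 library 1, which also moved it from -0.76 to -1.47 (adjusted p = 0.176 in edgeR) in JZL184 against SAP. The same 3 libraries had the 3 lowest sums of FPKM over all genes, 484256, 494474 and 596324, and with gene length offsets in the fit the change in SAP against control was 1.27 (log2). Their part in the result was not tested beyond these values.

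Srebf1 and Mlxipl are the transcription factor genes of the list. Srebf1 had 4.73, 4.41 and 4.31 FPKM in control, 3.95, 2.88, 3.56 and 2.71 in SAP and 3.10, 2.16, 5.68 and 2.75 in JZL184. SAP lay below control without overlap, and JZL184 library 3 lay above control while the other three JZL184 libraries lay below it. The log2 fold change of Srebf1 was -0.62 (SE 0.29, adjusted p = 0.459 in edgeR) in SAP and -0.44 (SE 0.36, adjusted p = 0.456) in JZL184. The count covers the gene as a whole, so its SREBP-1a and SREBP-1c transcripts were not separated. Mlxipl had 2.21, 2.48 and 3.65 FPKM in control, 5.85, 7.43, 3.92 and 2.83 in SAP and 7.60, 6.95, 0.85 and 6.15 in JZL184. Most pancreatitis libraries lay above control and JZL184 library 3 lay below it. The log2 fold change of Mlxipl was 0.55 (SE 0.40, adjusted p = 0.508 in edgeR) in SAP and 0.85 (SE 0.74, adjusted p = 0.486) in JZL184.

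The order of the levels per transcript length differed between groups. In control, Thrsp (190 FPKM) stood above Me1 (33.3), Acly (12.7), Fasn (7.27), Scd (6.08), Srebf1 (4.44), Acaca (4.35), Elovl6 (3.75), Mlxipl (3.00) and Pnpla3 (1.52). The ranges of Fasn and Scd overlapped, as did those of each neighbouring pair from Srebf1 to Mlxipl. In SAP the order was Me1 (20.8), Elovl6 (15.6), Acly (12.8), Thrsp (10.4), Mlxipl (5.01), Srebf1 (3.27), Acaca (3.13), Fasn (2.41), Scd (0.230) and Pnpla3 (0.140). Every neighbouring pair overlapped there except Fasn and Scd, and the same held in JZL184, where Thrsp (24.6) and Me1 (16.1) were highest and Scd (0.198) and Pnpla3 (0.082) lowest.

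SAP was compared with control to show how pancreatitis changed the ileum. By edgeR, none of the 8 tested members passed, as none of the 16029 genes tested did (0.0%, smallest adjusted p 0.0967), although 4 of the 8 members and 1457 genes had an unadjusted p below 0.05. DESeq2 called Pnpla3 and Fasn lower and no member higher, with 208 of 16971 genes called (1.23%). The FPKM of 4 of the 8, Pnpla3, Fasn, Srebf1 and Me1, lay below control without overlap, where 8.65% of all genes did. No member lay above control without overlap, where 13.4% of all genes did. The median log2 fold change was -0.65 over the 8 members and 0.06 over all genes tested. In exact permutation tests on FPKM (two-sided, 4 against 2), Pnpla3, Fasn and Me1 reached p = 0.0667, the smallest that this design allows. Without SAP library 2, the log2 fold change was -5.37 for Scd, -4.03 for Thrsp, -3.53 for Pnpla3 and -1.68 for Fasn.

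JZL184 was compared with control using the same control libraries, so the 2 comparisons are not independent and their values are only set side by side. All 10 genes passed the filter on low counts in each comparison. Here Pnpla3 passed it through the control samples, as its JZL184 libraries 1 to 4 had 16, 1, 8 and 4 reads. With at least 10 reads required in every library, Pnpla3 was not tested and Fasn alone was called. edgeR called 2 of the 8 tested members lower, Pnpla3 and Fasn, and none higher, with 343 of 15916 genes called (2.16%). DESeq2 called 4 lower, Pnpla3, Fasn, Acaca and Me1, with 10.8% of genes called. Below control without overlap lay 5 of the 8 (Pnpla3, Fasn, Acaca, Acly and Me1), where 18.1% of all genes did, and none lay above, where 18.5% of all genes did. The median log2 fold change was -0.97 over the 8 members and 0.08 over all genes tested. In exact permutation tests these 5 genes reached p = 0.0667, the smallest possible.

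JZL184 was compared with SAP to show the effect of the inhibitor in rats with pancreatitis. None of the 8 tested members passed in edgeR, nor did any of the 15308 genes tested (0.0%, smallest adjusted p 0.0604), while 1 member, Acly, and 3267 genes had an unadjusted p below 0.05. DESeq2 called no member and 6.98% of genes. All 10 members overlapped between the groups, where 6.53% of all genes lay lower in JZL184 without overlap and 4.7% lay higher. Acly had a log2 fold change of -0.66 (SE 0.28, adjusted p = 0.209 in edgeR), Pnpla3 of -0.66 (SE 0.61, adjusted p = 0.529), Fasn of -0.47 (SE 0.31, adjusted p = 0.384) and Elovl6 of -0.76 (SE 0.66, adjusted p = 0.505). The median over the 8 members was -0.40, against -0.05 over all genes tested. With SAP library 2 left out, the log2 fold change was -0.57 for Acly, -0.72 for Pnpla3, -0.57 for Fasn and -0.41 for Elovl6. These tests do not show that the groups were alike. Exact permutation tests on FPKM gave p between 0.114 for Acly and 0.886 for Srebf1, where 0.0286 was the smallest possible.

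**Figure D2:**
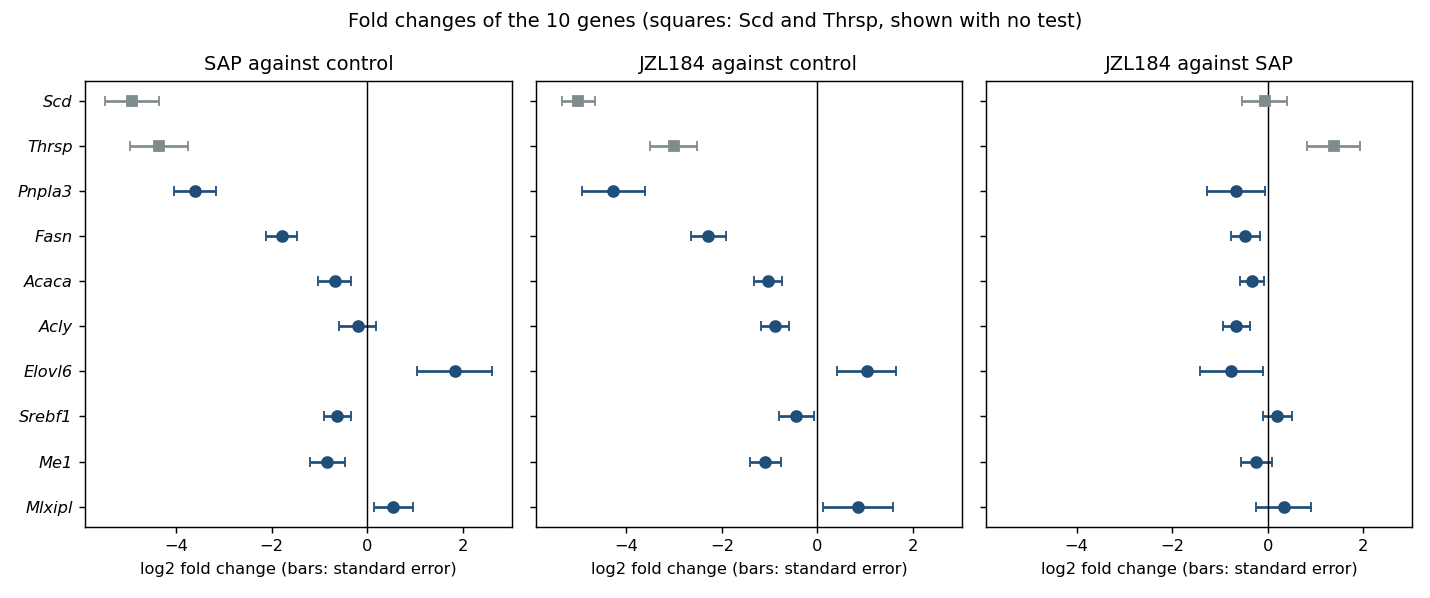
Log2 fold changes of the 10 genes from edgeR (points) with their standard errors (bars) in the 3 comparisons. Squares are Scd and Thrsp, which were not tested. Scd, Thrsp, Pnpla3 and Fasn lie left of 0 against control in SAP and in JZL184, Elovl6 and Mlxipl lie right of it, and in JZL184 against SAP the largest difference among the 10 is 1.38 for Thrsp.

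Ratios between genes of the same library do not depend on its scaling. The Fasn level was 0.558 to 0.610 of the Acly level in control libraries, 0.127 to 0.262 in SAP and 0.168 to 0.257 in JZL184, so Fasn stood lower relative to Acly in all 8 pancreatitis libraries than in any control library. Elovl6 stood at 0.378 to 0.702 of Fasn in control, and at 1.83 to 12.8 in SAP and 1.73 to 8.83 in JZL184. SAP library 2 set the lowest Fasn to Acly and the highest Elovl6 to Fasn value of SAP, and the limits without it were 0.199 and 7.72. Scd2, a paralog of Scd on the same chromosome, had 21.30, 21.46 and 16.18 FPKM in control, 12.66, 5.99, 5.56 and 2.83 in SAP and 5.11, 1.51, 6.48 and 2.46 in JZL184. Scd made up 22.3% to 26.4% of the summed level of both desaturases in control, 0.78% to 6.84% in SAP and 3.28% to 9.04% in JZL184, with at most 4.71% in SAP without library 2. Scd and Scd2 are alike in sequence, and reads that matched both were not counted because only uniquely aligned reads were used.

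**Figure D3:**
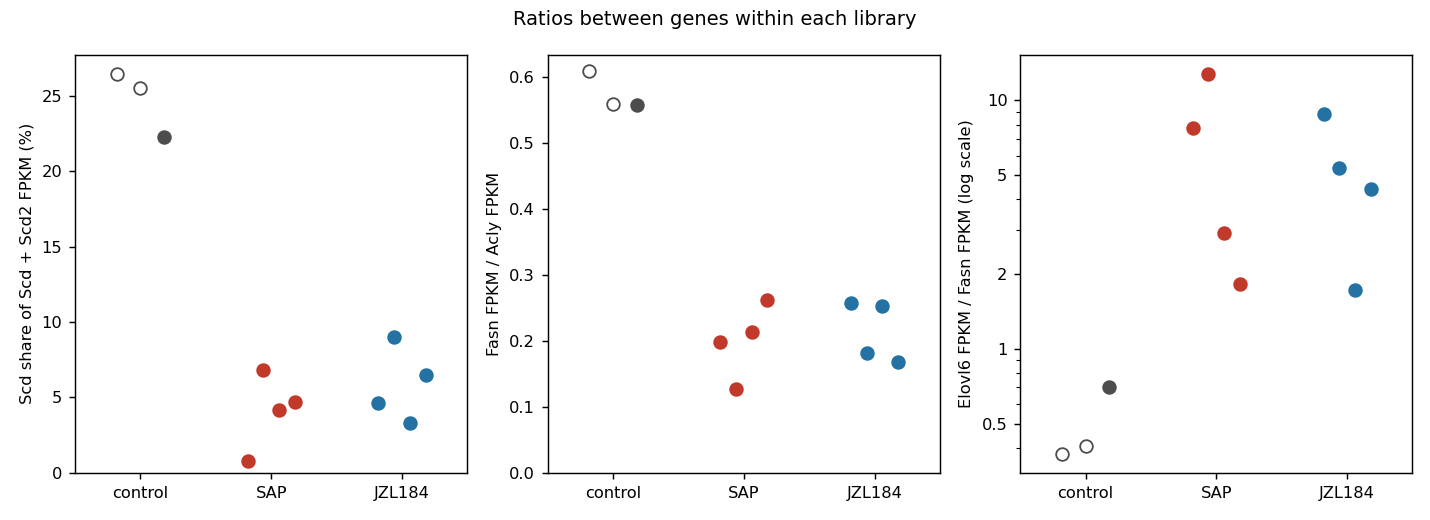
Scd as a percent of the summed Scd and Scd2 FPKM, Fasn FPKM divided by Acly FPKM, and Elovl6 FPKM divided by Fasn FPKM (log scale), each point a library and open points control libraries 1 and 2. Control libraries lie apart from all pancreatitis libraries in each panel, for example at 0.558 to 0.610 against 0.127 to 0.262 for Fasn to Acly.

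Beyond the 10 genes, 60 genes of 7 lists around the pathway were read in the same fits. In SAP against control, none of the 59 tested genes was called by edgeR or by DESeq2, with a median log2 fold change of -0.12. In JZL184 against control, edgeR called 2 of 58 lower, Scd2 (log2 fold change -2.37, SE 0.47, adjusted p = 0.0465) and Elovl1, an elongase of very long chains (-1.49, SE 0.29, adjusted p = 0.0454), and DESeq2 also called Plin2 and Prkaa2 higher. In JZL184 against SAP, none of 57 was called by either. The median over all lists was -0.05 in JZL184 against control and -0.06 in JZL184 against SAP. DESeq2 called 2 genes of these lists higher and 2 lower in JZL184 against control, beside 10.8% of all genes. The 2 of 58 that edgeR called there, Scd2 and Elovl1, stand beside 2.16% of all genes. Neither was called without control libraries 1 and 2, control library 3, JZL184 library 2 or JZL184 library 4, with adjusted p of 0.529, 0.177, 0.0866 and 0.102 for Scd2 and 0.549, 0.171, 0.094 and 0.0895 for Elovl1 in edgeR.

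The list of elongases and desaturases held both called genes. Its 8 tested genes had a median log2 fold change of -0.54 in SAP and -0.49 in JZL184, each against control. Scd2 had a log2 fold change of -1.69 (SE 0.49, adjusted p = 0.459 in edgeR) and Elovl1 of -1.19 (SE 0.34, adjusted p = 0.459) in SAP against control. Fads1, the desaturase that makes arachidonate, had 1.99 to 3.36 FPKM in control and 0.64 to 1.58 in JZL184, with a log2 fold change of -1.28 (SE 0.44, adjusted p = 0.118 in edgeR). With control libraries 1 and 2 separate and in limma-voom it was called lower (-1.39 and -1.33, adjusted p = 0.0292 and 0.0381). Over all genes these settings called 2800 and 2906, against 343 in the main fit. The first of them counts nearly alike libraries as separate samples. Fads2 had -0.47 (adjusted p = 0.548) and Elovl5 -0.50 (adjusted p = 0.335) in the same comparison. Elovl7 had -0.80 (adjusted p = 0.392 in edgeR) in JZL184 against SAP.

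Among suppliers of precursors and NADPH, no gene was called by edgeR or by DESeq2, and the median was -0.31 in SAP and -0.38 in JZL184 against control. Pklr, the pyruvate kinase that ChREBP is known to drive in liver, had 37.4 to 51.8 FPKM in control, 21.0 to 55.0 in SAP and 1.73 to 18.6 in JZL184, with a log2 fold change of -1.77 (SE 0.72, adjusted p = 0.167 in edgeR) in JZL184 against control and -1.37 (adjusted p = 0.234) against SAP. Without JZL184 library 3, where Pklr was lowest, edgeR called it lower than control (-1.39, adjusted p = 0.0331). That fit called 860 genes in all, against 343 with every sample. Slc25a1, the mitochondrial citrate carrier, had -0.82 (adjusted p = 0.12) in JZL184 against control. Tkt had -0.86 (adjusted p = 0.461) and Idh1 0.65 (adjusted p = 0.459) in SAP against control. Acss2, which makes acetyl-CoA from acetate, had -0.24 (adjusted p = 0.701) in SAP and -0.57 (adjusted p = 0.31) in JZL184 against control, and Acss1 had -0.62 (adjusted p = 0.181 in edgeR) in JZL184 against SAP.

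Among partners and regulators of acetyl-CoA carboxylase, the list's median was 0.47 in SAP and 0.18 in JZL184 against control, and edgeR called no member. Mid1ip1, a relative of Thrsp that binds the carboxylase, had 36.5 to 41.8 FPKM in control, 36.1 to 56.3 in SAP and 27.6 to 64.0 in JZL184. Its log2 fold change was 0.18 (adjusted p = 0.733 in edgeR) in SAP and 0.00 (adjusted p = 1.0) in JZL184 against control. Acacb, the mitochondrial carboxylase, had -0.40 (adjusted p = 0.653) in SAP and 0.37 (adjusted p = 0.745) in JZL184. Prkaa1, a catalytic subunit of AMP kinase, had 0.86 (adjusted p = 0.468) in SAP against control.

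Among genes of glycerolipid synthesis and storage, edgeR called none. Plin2, the lipid droplet coat protein, had 11.3 to 12.4 FPKM in control, 18.9 to 53.7 in SAP and 25.1 to 52.6 in JZL184, without overlap between control and either group. Its log2 fold change was 1.42 (SE 0.40, adjusted p = 0.459 in edgeR and 0.0784 in DESeq2) in SAP and 1.51 (SE 0.43, adjusted p = 0.0883 in edgeR and 0.0175 in DESeq2) in JZL184 against control. Without JZL184 library 3, edgeR called it higher in JZL184 (1.66, adjusted p = 0.0481), in a fit that called 860 genes in all, against 343 with every sample. The direction of Plin2 was opposite to that of Pnpla3, another lipid droplet protein. Plin3 had -1.20 (adjusted p = 0.225 in edgeR) in JZL184 against control, and Pnpla2, the triglyceride lipase of droplets, had -0.77 (adjusted p = 0.459) in SAP. Mogat2, which joins absorbed fatty acids to monoacylglycerol, had -0.89 (adjusted p = 0.578) and Agpat3 0.68 (adjusted p = 0.207) in JZL184 against SAP. Dgat2, the acyltransferase that finishes triglyceride synthesis, had -0.14 (adjusted p = 0.793) in SAP and 0.29 (adjusted p = 0.744) in JZL184 against control.

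Among genes that process SREBP, upstream transcription factors and insulin signalling, none was called in any comparison by edgeR or by DESeq2. Insig1, which holds SREBP in the endoplasmic reticulum and is itself a target of it, had 26.1 to 41.5 FPKM in control, 32.6 to 43.6 in SAP and 34.8 to 62.9 in JZL184, with a log2 fold change of -0.01 (adjusted p = 0.979 in edgeR) in SAP and 0.47 (adjusted p = 0.38) in JZL184 against control. Insig2 had -0.93 (adjusted p = 0.186) in JZL184 against control, where edgeR called it lower (-1.30, adjusted p = 0.0302) without JZL184 library 1. That fit called 1867 genes in all, against 343 with every sample. Scap had -0.46 (adjusted p = 0.468) and Mbtps1 0.43 (adjusted p = 0.604) in SAP. Nr1h3, which encodes LXR alpha, an activator of Srebf1 in liver, had 16.3 to 22.8 FPKM in control, 15.8 to 21.0 in SAP and 2.69 to 12.4 in JZL184. It had a log2 fold change of -1.43 (SE 0.50, adjusted p = 0.125 in edgeR) in JZL184 against control and -1.10 (SE 0.39, adjusted p = 0.17) against SAP. With control libraries 1 and 2 separate and in limma-voom, Nr1h3 was called lower in JZL184 against control (-1.51 and -1.5, adjusted p = 0.035 and 0.0335). Ppargc1b had 1.95 (SE 0.91, adjusted p = 0.459) in SAP against control, at 0.28 to 0.49 FPKM in control and 0.37 to 3.19 in SAP. Pparg had -0.92 (adjusted p = 0.459) in SAP against control and 1.05 (adjusted p = 0.434 in edgeR) in JZL184 against SAP. The last value rests on JZL184 library 3, with 12.45 FPKM against 0.96 to 1.71 in the rest of its group, and was -0.56 without it. Insr, the insulin receptor, had 0.82 (adjusted p = 0.459) in SAP and 0.84 (adjusted p = 0.29) in JZL184 against control. Irs2 had 1.02 (adjusted p = 0.135) in JZL184 against control and 0.93 (adjusted p = 0.165) against SAP, Akt2 had 0.22 (adjusted p = 0.593) against SAP, and Irs2 had 0.12 (adjusted p = 0.886) in SAP against control, or -0.13 without control libraries 1 and 2. Irs2 was called higher in JZL184 against control with control libraries separate and in limma-voom (1.13 and 1.16, adjusted p = 0.0314 and 0.0325). For Nr1h3 and Irs2 alike, these settings called 2800 and 2906 genes in all, against 343 in the main fit. The first of them counts nearly alike control libraries as separate samples.

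**Figure D4:**
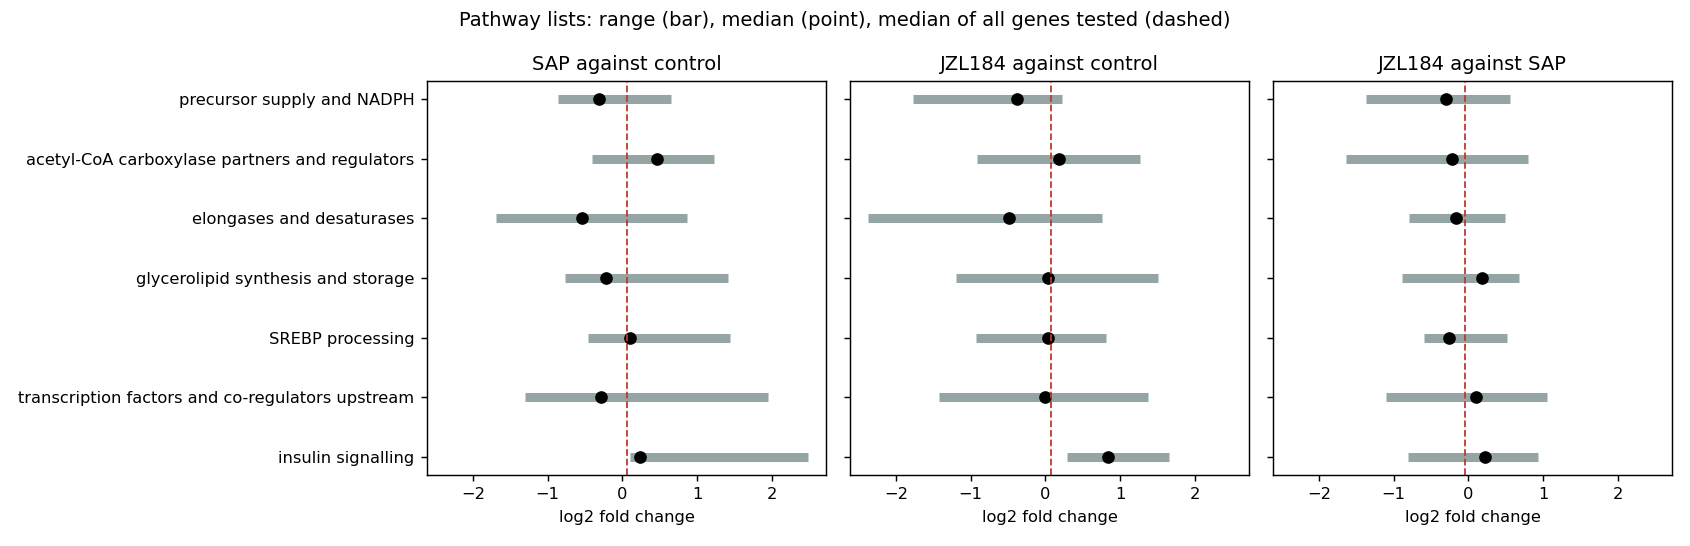
Log2 fold changes of 7 lists of genes around the pathway in the 3 comparisons, with the range of each list (bar), its median (point) and the median of all genes tested (dashed line). The elongases and desaturases reach furthest below 0 in JZL184 against control, to -2.37 for Scd2, with a median of -0.49.

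The genes whose pattern was most like that of Scd over the 10 samples were Atf3, Nkd2, Plaat5, Tppp3 and Ccnb2. Their Pearson r of log2(FPKM + 1) was 0.946, 0.942, 0.932, 0.923 and 0.921, as a description among 11092 genes with a mean FPKM of at least 1. The most alike to Thrsp were Syt5 (0.932), Cys1 (0.879), Zfp707l1 (0.877), Pef1 (0.873) and Pgp (0.872). The samples share their libraries and scaling, and the difference between control and the other groups enters such a likeness. How much of it this difference makes up was not tested. The list was drawn up around Scd and Thrsp with these levels known, so the ranks of its members only describe them. By likeness to Scd, Fasn ranked 13 of 11092 (r = 0.884), Thrsp 46 (r = 0.83), Me1 223 (r = 0.716) and Acaca 515 (r = 0.645). Srebf1 ranked 1714 (r = 0.461) and Acly 2338 (r = 0.37). By likeness to Thrsp, Fasn ranked 188, Srebf1 612, Acaca 1507, Me1 2241 and Acly 4451. Elovl6 (r = -0.369) and Mlxipl (r = -0.301) ran against Scd. Pnpla3 was not ranked because its mean FPKM was below 1.

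Markers of cell types that the ileum samples could hold moved with the groups in part. Of 12 adipocyte markers, all 12 were in the tables and 8 had at least 1 FPKM in every library. Their summed level was 303.04 to 486.98 FPKM in control, 287.62 to 786.24 in SAP and 509.51 to 843.27 in JZL184. The overlap of SAP with control came from SAP library 2, and SAP libraries 1, 3 and 4 had 596.62, 786.24 and 647.38 FPKM, above every control library. Fabp4 was the largest part of each sum, with 146 to 267 FPKM in control, 175 to 437 in SAP and 349 to 628 in JZL184. Without SAP library 2, the lowest Fabp4 in SAP was 367 FPKM. Plin1, Cidec, Plin4, Lipe and Lpl overlapped with control in both groups. The list's median log2 fold change was 0.20 in SAP and -0.08 in JZL184, each against control. edgeR called no adipocyte marker. Of those tested, 1 of 12, 3 of 11 and 3 of 12 had an unadjusted p below 0.05 in SAP against control, JZL184 against SAP and JZL184 against control. Over all genes tested, 1457 of 16029, 3267 of 15308 and 4178 of 15916 had such a p in these comparisons. DESeq2 called Lep higher in JZL184 against SAP, and Retn higher and Adrb3 lower in JZL184 against control. Adipoq, which adipocytes alone are known to make, had 10.955 to 15.2 FPKM in control, 12.1 to 25.4 in SAP and 6.46 to 16.1 in JZL184. JZL184 libraries 1, 2 and 4 had 9.39, 6.46 and 9.37 FPKM of Adipoq, below every control library. Aqp7, another of the list, had 40.7 to 43.7 FPKM in control, 5.38 to 30.9 in SAP and 0.64 to 19.3 in JZL184. Per 1000 FPKM of summed adipocyte markers, Scd stood at 9.53 to 25.3 FPKM in control, 0.168 to 1.53 in SAP (at most 0.305 without library 2) and 0.178 to 0.491 in JZL184. The part of the adipocyte markers in these levels was not tested.

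Of 10 enterocyte markers, 9 were in the tables, 6 had at least 1 FPKM in every library. edgeR called none, with 1 at an unadjusted p below 0.05 in each comparison, and DESeq2 called Vil1 lower in JZL184 against control. Their summed level was 32312 to 34467 FPKM in control, 7794 to 21133 in SAP (10951 or more without library 2) and 3672 to 18509 in JZL184, without overlap between control and either group, and was lowest in JZL184 library 3. Fabp6, the ileal bile acid binding protein, made up most of the control sum, with 20506 to 21794 FPKM in control, 3079 to 13670 in SAP and 79.9 to 9000 in JZL184, while Epcam had 3113 to 3814, 2220 to 3059 and 2802 to 3249 FPKM. The list did not move as one, and Mttp, Apob, Slc10a2, Alpi, Anpep and Fabp2 overlapped with control in both groups. Mttp had 15.4 to 24.8 FPKM in control, 20.1 to 106 in SAP (at most 65.2 without library 2) and 0.29 to 118 in JZL184. Apob had 10.6 to 18.2, 10.3 to 58.8 (at most 27.5 without SAP library 2) and 0.29 to 25.7 FPKM. The part of the enterocyte markers in the levels of the lipogenesis genes was not tested. JZL184 library 3, with the lowest sum, also had the lowest Mlxipl and Me1 and the highest Srebf1 and Thrsp of its group. Smooth muscle markers summed to 1872 to 2064 FPKM in control, 801 to 2023 in SAP and 367 to 2115 in JZL184. Leukocyte markers summed to 80.8 to 85.4, 71.9 to 117 and 65.7 to 298 FPKM. In each list 6 of 6 were tested and edgeR called none. Up to 2 smooth muscle and 4 leukocyte markers had an unadjusted p below 0.05. Both of these counts came from JZL184 against control, where 4178 of 15916 genes had such a p. DESeq2 called the smooth muscle marker Tagln lower in JZL184 against control, the leukocyte markers S100a8 and S100a9 higher in both groups against control and Csf1r lower in JZL184 against each other group.

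Hepatocyte markers, which would mark a tissue rich in these enzymes, summed to 2.10 to 2.12 FPKM in control (libraries 1 and 2 averaged), 7.58 to 41.1 in SAP and 0.92 to 55.5 in JZL184. Control libraries 1 and 2 alone had sums of 2.65 and 1.54 FPKM. Nearly all of the high sums was Fga, with up to 39.7 FPKM in SAP and 54.0 in JZL184, and Alb had at most 0.33 FPKM in any library. Of 8 markers of exocrine pancreas, 7 were in the tables, and 6 of these had at most 0.10 FPKM in any group with control libraries 1 and 2 averaged. The exception was Cela1, with 10.7 to 11.5 FPKM in control, 4.88 to 10.7 in SAP and 4.19 to 9.32 in JZL184. In control library 1 alone, Prss1 and Ctrb1 each had 0.17 FPKM. Between 3 and 5 hepatocyte markers and 1 pancreas marker passed the filter on low counts in each comparison. edgeR called none, with Fga at an unadjusted p below 0.05 in both groups against control, where DESeq2 called it higher.

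**Figure D5:**
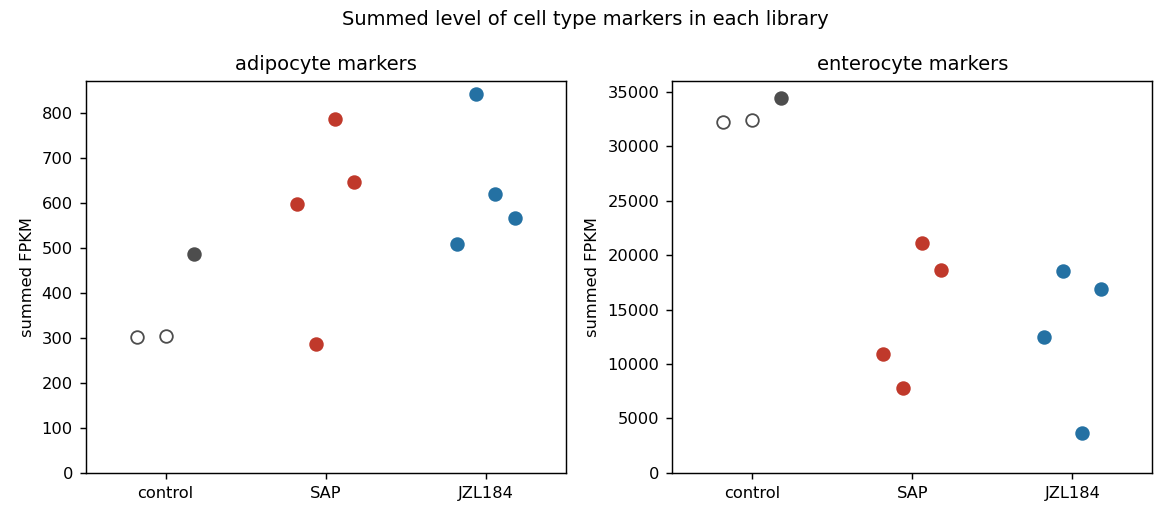
Summed FPKM of adipocyte markers and of enterocyte markers in every library by group, each point a library and open points control libraries 1 and 2. Fabp4 is the largest part of each adipocyte sum. The adipocyte sums of control (303.04 to 486.98 with libraries 1 and 2 averaged) overlap with those of SAP through SAP library 2 (287.62), while the other SAP libraries (596.62 to 786.24) and all JZL184 libraries lie above control, and the enterocyte sums of all pancreatitis libraries lie below control.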

How the data were processed

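Total RNA of 11 rat ileum samples had been sequenced as stranded mRNA libraries. After trimming (FASTX-Toolkit), the authors aligned reads to mRatBN7.2 with HISAT2 and deposited the count of uniquely aligned reads per gene without normalization. The authors also deposited FPKM, normalized for transcript length and library size and rounded to 2 decimals. Which tool counted reads, and on which annotation, is not given in the sources used here. Depth was 26341299 to 33847135 reads on genes per library, so counting error mattered mainly for Pnpla3 and for Scd in the low groups.

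Members and lists were chosen with earlier results of these data known. Samples were grouped by the labels. Reads of control libraries 1 and 2 were summed and their FPKM averaged, except in the alternatives with separate control libraries or replicate blocks. Groups were compared in pairs with edgeR 4.0.16 (quasi-likelihood test, TMM, default filter with a minimum count of 10) in R 4.3.3, and a call needed an adjusted p (Benjamini-Hochberg, over all genes tested) below 0.05 and a fold above 2 or below 0.5. Standard errors were the log2 fold change divided by the square root of F. Exact permutation tests used FPKM. Alternatives were DESeq2 1.42.0, limma-voom with quality weights (limma 3.58.1), other normalization, filters and thresholds, all groups in 1 fit, separate control libraries, replicate blocks, gene length offsets, and leaving out each library. The fits were run on simulated counts for SAP against control and JZL184 against SAP only. A single spread was set for all genes there, so the simulation does not test the fits at the spread of these libraries. Python 3.11.15 with pandas 2.3.3 and matplotlib 3.10.9 made tables and plots.

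Genes named are the 10 members, 10 neighbours named in every case (Insig1, Scd2, Fads1, Fads2, Elovl5, Acss2, Mid1ip1, Nr1h3, Dgat2 and Acacb), and from 7 pathway lists of 60 genes those called and the 2 largest changes per list and comparison with a mean FPKM of at least 1. Prkaa2, named because DESeq2 called it, was chosen after its values were seen. The 5 genes most like Scd and Thrsp were ranked on log2(FPKM + 1). Marker lists covered adipocytes, hepatocytes, exocrine pancreas, enterocytes, smooth muscle and leukocytes.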

Additional observations from a re-analysis of the deposited data

Results flagged for a closer look

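In each group of 4 libraries of the genes named here, the gap between the highest or lowest library and its nearest neighbour was compared with the range of the group. It passed Dixon's 95% critical value for 4 samples in 8 of 82 groups tested. Chance gives about 1 in 20 for independent groups chosen without regard to their values. Part of these genes were named for their large changes, and they share libraries, so that rate is no measure for them. JZL184 library 1 had 18.54 FPKM of Elovl6 (others 3.75 to 5.26) and 4.36 of Insig2 (others 1.79 to 1.85). JZL184 library 3 had 12.45 FPKM of Pparg (others 0.96 to 1.71), 6.55 of Scap (others 3.67 to 4.01), 4.29 of Agpat3 (others 2.89 to 3.12) and 1.73 of Pklr (others 16.15 to 18.65). SAP library 4 had 36.09 FPKM of Mid1ip1 (others 53.53 to 56.27), and SAP library 3 had 14.27 of Acss2 (others 15.15 to 15.18).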

How the results depend on the processing

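The number of genes called depended on the test and on the control libraries. In SAP against control, where edgeR called 0, the count was 33 with control libraries 1 and 2 separate, 208 in DESeq2, 1434 in DESeq2 with these libraries separate, 14 in limma-voom, 14 without a filter on low counts, 4 with all 3 groups in 1 fit, and 0 to 3 when a sample was left out (3 without SAP library 4). In JZL184 against SAP, where edgeR called 0, it was 1283 in DESeq2, 699 in limma-voom, 27 without a filter, 207 with all 3 groups, 32 with gene length offsets, and 0 to 655 when a sample was left out (655 without JZL184 library 1 and 1 without SAP library 2). In JZL184 against control, where edgeR called 343, it was 2800 with separate control libraries, 1899 in DESeq2, 3498 in DESeq2 with these separate, 2906 in limma-voom, 929 without a filter, and 0 to 1867 when a sample was left out (0 without control libraries 1 and 2, 1 without control library 3, 1867, 25, 860 and 78 without JZL184 libraries 1 to 4).

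Of the 8 tested members, edgeR called 0 in SAP against control, and 2 were called with control libraries separate and in DESeq2 (Pnpla3 and Fasn), 3 in DESeq2 with these separate (with Elovl6, higher), and 1 in limma-voom and without a filter (Pnpla3). Leaving out a sample gave 0 in SAP against control and in JZL184 against SAP, where no setting called a member. In JZL184 against control, edgeR called 2, and 4 were called with control libraries separate, in DESeq2 and in limma-voom, 5 in DESeq2 with these separate, 1 with at least 10 reads in every library, where Pnpla3 was not tested, and 0 to 3 when a sample was left out. The cause of these differences was not tested.

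With the replicate number as a block, the count of genes called was 1 in SAP against control (7 with gene length offsets added) and 0 in JZL184 against SAP. It was 1488 in JZL184 against control (1200 with offsets). Without offsets, the last fit called 3 members, and it called Fads1 (-1.41), Nr1h3 (-1.78) and Pklr (-2.49) lower and Plin2 (1.48) higher. Against control, the block fits counted the nearly alike control libraries 1 and 2 as separate samples. The replicate numbers did not pair the samples, since deviations of same-numbered samples correlated between -0.47 and 0.136 and most samples did not correlate best with their own number.

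Some small differences changed sign. Acly in SAP against control was 0.17 (log2) without control libraries 1 and 2, which also gave 0.0 for Fads1, 0.3 for Acss2, 0.03 for Nr1h3, 0.04 for Dgat2 and 0.19 for Acacb. Insig1 in that comparison was 0.09 and, in DESeq2, 0.08 with separate control libraries, 0.13 with the block, 0.28 without control library 3 and 0.01 without SAP library 3. In JZL184 against SAP, Srebf1 was -0.11 and Elovl5 -0.07 without JZL184 library 3, and Fads2 was -0.03 with the block, -0.14 without JZL184 library 2 and -0.07 without library 4. In JZL184 against control, Mid1ip1 was -0.03 in DESeq2 and without a filter, -0.1 in limma-voom, -0.02 with DESeq2 size factors, 0.0 with at least 10 reads or all 3 groups, -0.05 without control libraries 1 and 2 and -0.25 without JZL184 library 3, and Acacb was -0.02 with offsets, -0.28 with block and offsets, -0.05 without control library 3 and -0.18 without JZL184 library 1.

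On FPKM, the difference in Acly in SAP against control was -0.036 and -0.044 on log2 scales with 1 and 0.1 added, -0.627 with separate control libraries, and -2.13, -1.135 and -0.962 without control library 3, SAP library 1 and SAP library 2. In JZL184 against SAP, Srebf1 was 0.0 and -0.015 on these log2 scales, -0.605 without JZL184 library 3 and -0.041 without SAP library 4, and Mlxipl was -0.067 and -0.178 on the log2 scales and -0.358, -0.141 and -0.346 without JZL184 library 1, JZL184 library 2 and SAP library 4. Leaving out a single library other than control libraries 1 and 2 gave values up to 0.33 for Srebf1, 0.34 for Fads2 and 0.27 for Elovl5 in JZL184 against SAP and 0.11 for Mid1ip1 and 0.67 for Acacb in JZL184 against control (log2), and 2.108 for Acly, 0.568 for Srebf1 and 1.893 for Mlxipl (FPKM, same comparisons as above). Without control libraries 1 and 2, Acacb was 0.94 in JZL184 against control (log2) and Acly 2.38 in SAP against control (FPKM). With control n = 2, the exact tests against control could not pass 0.05.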
